A study of Homo sapiens with 12 samples.

Results

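MKN1 is a human gastric cancer line that the labels type as gastric adenosquamous carcinoma and as wild type in genotype. The comparison described here sets 3 libraries of MKN1 cells treated with cantharidin sodium against 3 libraries of untreated MKN1 cells, chosen by their labels alone. These are 6 of the 12 libraries of the series, and the other 6 are the same groups in AGS, a gastric adenocarcinoma line. Both MKN1 groups were grown in RPMI-1640 with fetal bovine serum, and the series calls the libraries biological replicates. Neither the dose nor the time in drug is stated in the sources used here. The question of the comparison is which mRNAs differ in level between treated and untreated MKN1 cells. Each group is a single cell line, so the results describe MKN1 cells and no tumour. In such bulk RNA, fewer cells of a kind and less RNA per cell cannot be told apart.

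Cantharidin sodium is the salt of cantharidin, the blistering toxin of blister beetles. Cantharidin is a known inhibitor of the serine/threonine phosphatases PP2A and PP1, which remove phosphate from many kinases, cell cycle proteins and signalling proteins. PP2A is built from a catalytic, a scaffold and a regulatory subunit, and it holds back mitotic entry and several growth factor pathways. The YAP and TAZ coactivators, the ERK pathway and the stress kinases that raise ATF4 are all under phosphatase control in epithelial cells.

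The 6 libraries held 28604966 to 38269048 counts, so that the floor of 3 counts stood for 0.0781 to 0.0992 CPM (counts scaled to library size, with TMM factors between libraries) in the treated libraries. Mitochondrial genes took 4.42 to 6.08% of the counts. The labelled type was checked against marker genes. All 9 squamous markers averaged at least 1 CPM (KRT17 3790 CPM, TP63 12.8 CPM), and all 6 simple epithelial markers did as well. Of 9 gastric epithelial markers measured, 5 reached that level, and the gastric genes TFF1, CLDN18 and ANXA10 were close to 0. Mesenchymal markers were abundant too, with sums of 3010 to 3270 CPM in untreated and 3000 to 3520 CPM in treated cells. FN1 averaged 1300, SPARC 1240 and VIM 649 CPM, while CDH2 averaged 0.179 CPM and the epithelial gene CDH1 8.78 CPM. Summed levels of 8 fibroblast markers ran from 87.6 to 146 CPM in untreated and from 52.9 to 101 CPM in treated cells, mostly from LUM. Among markers of other cell types, summed levels of the 6 endothelial genes measured ran from 2.97 to 3.84 CPM in untreated and from 4.23 to 5.62 CPM in treated cells. The leukocyte gene PTPRC was at 0 counts in 4 of the libraries. Summed blood markers ran from 44.7 to 64.9 CPM in untreated and from 26.3 to 41.6 CPM in treated cells, mostly from CD68, a lysosomal gene that shares exon bases with its neighbours. Genes restricted to AGS cells (37 genes) stood at 0.0952 to 0.122% of their AGS level in every MKN1 library, with 0.108% in untreated replicate 3.

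The library labelled untreated replicate 3 stood apart from the other untreated libraries. Untreated replicates 1 and 2 correlated at r = 0.9924 across genes in log2 CPM. Replicate 3 reached 0.9755 and 0.9781 with them, and 0.9752 to 0.9801 with the treated libraries, so it lay no closer to its own group than to the other. Along the first principal component, which held 40.3% of the variance, untreated replicates 1 and 2 lay at −0.287 and −0.289, untreated replicate 3 at 0.058, and the treated libraries at 0.081, 0.180 and 0.258. The second component, with 25.5%, was set mostly by untreated replicate 3, at −0.332. The difference between replicate 3 and the other untreated libraries rose with GC content (Spearman rho 0.25 across 18427 genes, which are not independent replicates). The same measure was −0.12 for treated minus untreated and −0.01 without replicate 3. Why replicate 3 differs was not tested, and the gene counts, the list counts and the genes named from the lists are given below with and without it.

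**Figure D1:**
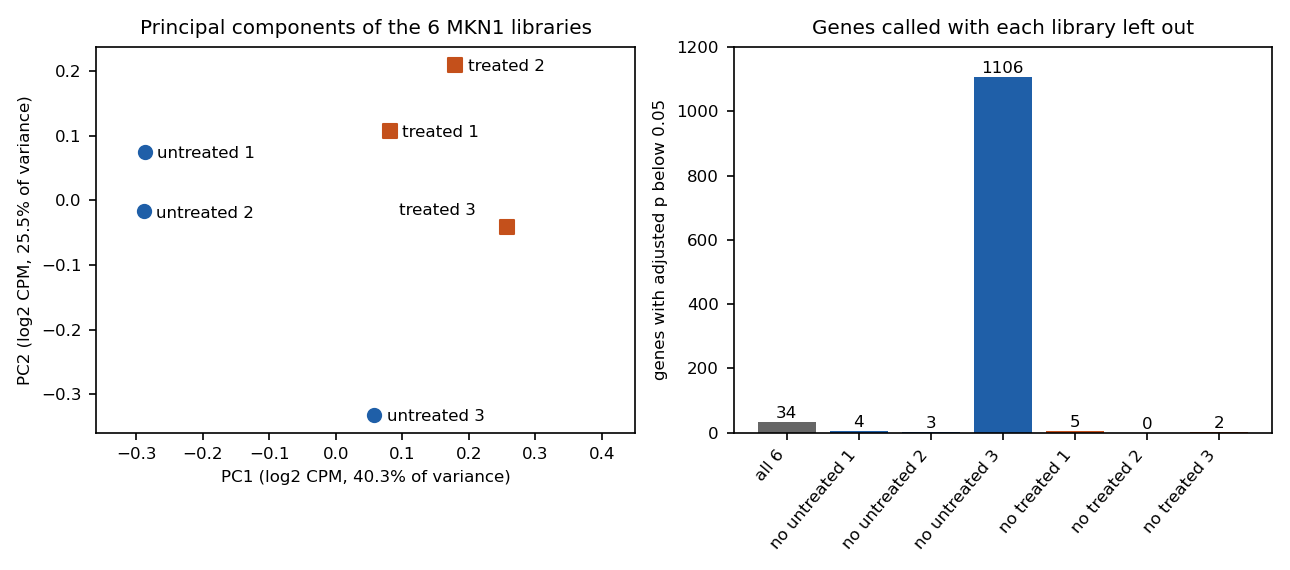
Left, the 6 MKN1 libraries on the first 2 principal components of log2 CPM, with untreated libraries as circles and treated libraries as squares. Right, bars count the genes with an adjusted p below 0.05 in fits of all 6 libraries and of 5 libraries, and the count of 1106 without untreated replicate 3 stands against 34 with all libraries and 0 to 5 without any other library.

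With all 6 libraries, 34 of 18484 tested genes passed an adjusted p of 0.05 in edgeR's quasi-likelihood test, which is 0.184% of the genes. Of these, 5 were higher in treated cells (0.0271%) and 29 lower (0.157%). All 34 differed by at least 1 on the log2 scale, and in all 34 the treated libraries lay outside the range of the untreated ones. The last property alone is common here, since 22% of all tested genes (4066) had groups that did not overlap. At an unadjusted p of 0.05, 3060 genes (16.6%) passed. Without untreated replicate 3, 1106 of 19023 genes (5.81%) passed, with 563 higher (2.96%) and 543 lower (2.85%). All 34 genes were among the 1106, with the same sign. Leaving out any other library gave 0 to 5 genes. When the spread was estimated from all 12 libraries of both lines, 1358 of 20280 genes (6.7%) passed in MKN1, 567 higher (2.8%) and 791 lower (3.9%). The biological coefficient of variation was 24% with all libraries, 20.5% without untreated replicate 3, and 23.6 to 25.9% without any other library.

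At the 1106 genes that passed without it, the left-out library can be placed on the line from the mean of untreated replicates 1 and 2 (position 0) to the treated mean (position 1). Its median position was 0.65. It lay towards the treated libraries in 979 genes (88.5%), nearer to the treated mean in 675 (61.0%) and at or past that mean in 273. The median was 0.8 in genes higher in treated cells and 0.49 in genes lower there. Untreated replicate 3 took no part in choosing these genes. Its position is scaled, however, by the same untreated and treated values that chose them. A left-out library can lie above 0 through that choice alone, and no other library was placed in this way for comparison. At most of these genes the library labelled untreated lay nearer to the treated mean than to the mean of untreated replicates 1 and 2.

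**Figure D2:**
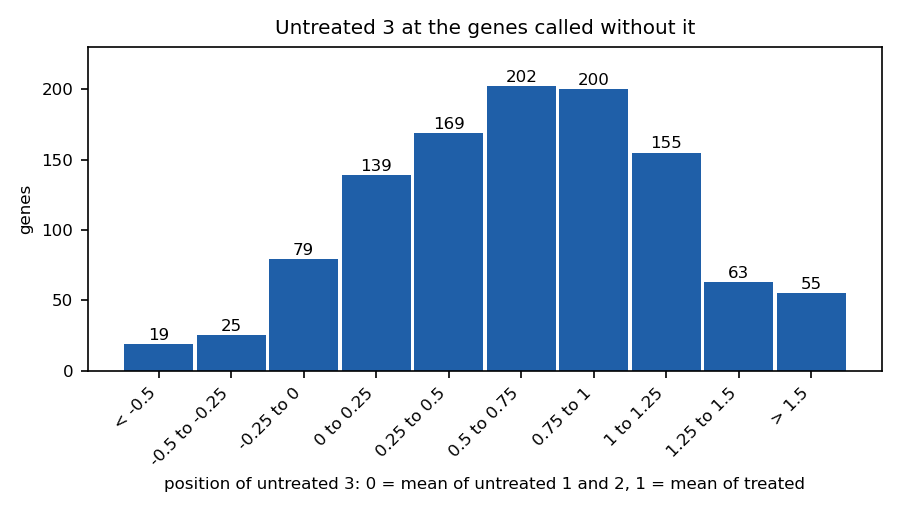
Number of genes (bars) by the position of untreated replicate 3, for the 1106 genes that passed the test without it. On the horizontal axis 0 is the mean of untreated replicates 1 and 2 and 1 the mean of the treated libraries in log2(CPM + 0.5); 675 genes lie above 0.5.

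SPRED3, a membrane-bound inhibitor of RAS signalling, is an example picked after its values were seen. SPRED3 stood at 1.24 and 1.71 CPM in untreated replicates 1 and 2, at 26.2 CPM in untreated replicate 3 and at 35.5, 42.9 and 31.5 CPM in treated cells. Untreated replicate 3 lay just below the treated range and far above the other untreated libraries. The log2 fold change was 1.91 (SE 0.90, adjusted p = 0.327) with all libraries and 4.63 (adjusted p = 6.24e-05) without that library. HMOX1, heme oxygenase, also picked after its values were seen, had 75.5, 78.0 and 27.9 CPM in untreated and 27.6, 31.7 and 29.3 CPM in treated cells. In HMOX1 the untreated replicate 3 value lay inside the treated range, and the log2 fold change went from −1.03 (adjusted p = 0.171) to −1.38 (adjusted p = 0.00303) without it.

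At the 34 genes that passed with all libraries, untreated replicate 3 lay with its own group, which the test itself favours because it counted that library as untreated. KCTD21 (ENSG00000188997, GRCh38 chromosome 11, 78171249 to 78188822), an adaptor of cullin ubiquitin ligases, had the largest rise of the 5 higher genes. KCTD21 had 0.794, 0.690 and 0.774 CPM in untreated and 5.84, 5.95 and 6.77 CPM in treated cells. The groups were far apart, with an 8.22-fold ratio of means (log2 fold change 3.03, SE 0.25, adjusted p = 0.00613). KCTD21 shares 28.7% of its exon bases with KCTD21-AS1 and USP35, whose log2 fold changes of −0.43 (adjusted p = 0.492) and 0.19 (adjusted p = 0.76) did not pass, so KCTD21 passed and neither neighbour did.

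RNF125, a ubiquitin ligase known for restraining RIG-I signalling, rose from 8.87, 8.36 and 7.80 CPM to 17.4, 30.5 and 22.9 CPM (log2 fold change 1.5, SE 0.23, adjusted p = 0.0493). LONRF3, a further RING-domain gene, rose from 15.6, 15.0 and 16.1 CPM to 29.8, 39.4 and 34 CPM (log2 fold change 1.14, SE 0.17, adjusted p = 0.043). In both genes the untreated libraries were tight and all treated ones lay well above them. The other rises were noncoding transcripts, KRTAP5-AS1 (2.85, adjusted p = 0.0493), whose reads cannot be told from those of the overlapping KRTAP5-2 without strand, and the lincRNA ENSG00000261770 (2.07, adjusted p = 0.0357).

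The 29 falls are taken in the order of the known roles of the genes, which is a description and not a tested grouping. Among them were secreted proteins. SAA2 (ENSG00000134339, chromosome 11, 18239223 to 18248643), an acute-phase serum amyloid A, had 83.9, 85.3 and 86.4 CPM in untreated and 26.7, 24.8 and 20 CPM in treated cells. All 3 untreated libraries were nearly equal, and SAA2 fell by 1.84 on the log2 scale (SE 0.16, adjusted p = 0.00613). Its close paralog SAA1 had a log2 fold change of −1.01 (adjusted p = 0.11) with groups that did not overlap, and reads of the pair may be split between them. CCL2 (ENSG00000108691, chromosome 17, 34255218 to 34257203), the chemokine that draws monocytes, had 52.5, 52.3 and 88.8 CPM in untreated and 9.48, 5.99 and 15.1 CPM in treated cells. The highest treated value was far below the lowest untreated one, and CCL2 fell by 2.66 (SE 0.35, adjusted p = 0.0279). S100P, a small secreted calcium-binding protein, fell from 14.2, 19.6 and 19.0 CPM to 5.14, 6.28 and 6.04 CPM (log2 fold change −1.60, adjusted p = 0.0279).

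Several genes of metabolism were also among the falls. PTGIS (ENSG00000124212, chromosome 20, 49503874 to 49568146), the synthase that makes prostacyclin, had 335, 335 and 357 CPM in untreated and 111, 61.4 and 113 CPM in treated cells. It was among the more abundant of the genes that passed and fell by 1.85 (SE 0.23, adjusted p = 0.0235). FABP3, a fatty acid carrier, went from 29.3, 28.9 and 30.1 CPM to 9.81, 7.94 and 9.89 CPM (log2 fold change −1.68, adjusted p = 0.0149). ACSF2, a mitochondrial acyl-CoA synthetase, fell by 1.82 (adjusted p = 0.022) and PRODH, the first enzyme of proline breakdown, by 2.97 (adjusted p = 0.0206), the latter from a low level of 2.43 ± 0.553 CPM (SD, n = 3). AKR1C3, an aldo-keto reductase of steroids and prostaglandins, had 51.0, 46.7 and 30.1 CPM in untreated and 15.5, 12.4 and 7.76 CPM in treated cells. Untreated replicate 3 was the lowest untreated value, and AKR1C3 only just passed (log2 fold change −1.84, adjusted p = 0.0496). UGT1A6, a glucuronosyl transferase, fell by 1.90 (adjusted p = 0.0325) but shares 64.4% of its exon bases, mainly with other UGT1A genes. Its neighbours UGT1A1 (−1.85, adjusted p = 0.0891) and UGT1A7 (−2.18, adjusted p = 0.158) had values of similar size that did not pass, so which UGT1A transcript fell cannot be told.

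TGM2 (ENSG00000198959, chromosome 20, 38127387 to 38166578), tissue transglutaminase, a protein crosslinking enzyme, had 83.8, 97.4 and 115 CPM in untreated and 32.4, 41.9 and 34.3 CPM in treated cells. The groups were well separated, and TGM2 fell by 1.45 (SE 0.18, adjusted p = 0.022). MUC1 (ENSG00000185499, chromosome 1, 155185824 to 155192916), the transmembrane mucin of epithelial surfaces, had 224, 255 and 275 CPM in untreated and 126, 86.4 and 111 CPM in treated cells. MUC1 fell by 1.23 (SE 0.18, adjusted p = 0.0389), with untreated replicate 3 the highest of the 6 values. UPK3B, a uroplakin, fell by 1.21 (adjusted p = 0.0279).

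Further falls were in genes of surface and membrane proteins. ADGRB2, an adhesion G-protein-coupled receptor, went from 21.3, 25.4 and 25.2 CPM to 6.00, 6.48 and 6.95 CPM (log2 fold change −1.89, adjusted p = 0.0114). The sodium-proton exchanger gene SLC9A3 went from 390, 402 and 496 CPM to 183, 167 and 197 CPM (log2 fold change −1.23, adjusted p = 0.0279). Of the exon bases of SLC9A3, 56.7% are shared with EXOC3 and others, but EXOC3 (−0.07, adjusted p = 0.86) and SLC9A3-AS1 (0.16, adjusted p = 0.71) did not pass. The sphingosine-1-phosphate exporter SPNS2 fell by 1.98 (adjusted p = 0.0279) and the ferritin receptor SCARA5 by 2.13 (adjusted p = 0.022). The cell adhesion genes CADM3 (−1.13, adjusted p = 0.022) and KIRREL2 (−2.02, adjusted p = 0.0493), the potassium channel gene KCNJ4 (−1.85, adjusted p = 0.0357) and the glutamate receptor subunit GRIN3B (−2.26, adjusted p = 0.0496) also fell, the last 3 from 1.71 to 3.24 CPM.

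The remaining falls have varied roles. The zinc finger gene ZBED2 fell by 1.38 (adjusted p = 0.0279), the ubiquitin ligase gene TMEM129 by 1.5 (adjusted p = 0.022) and the phospholipase and acyltransferase gene PLAAT4 by 1.34 (adjusted p = 0.0357). RAB26, a small GTPase of secretory granules, fell by 2.63 (adjusted p = 0.022). PBXIP1 (−1.08, adjusted p = 0.043), PRAF2 (−1.16, adjusted p = 0.0325), REEP2 (−1.33, adjusted p = 0.0493) and NAT14 (−1.81, adjusted p = 0.0316) also fell. The transcript ENSG00000151303 had 0.863, 0.763 and 0.526 CPM in untreated cells and 0 counts in all 3 treated libraries, which is at least 7.23-fold lower against the floor of 3 counts per library, and 56.1% of its exon bases are shared with other genes.

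**Figure D3:**
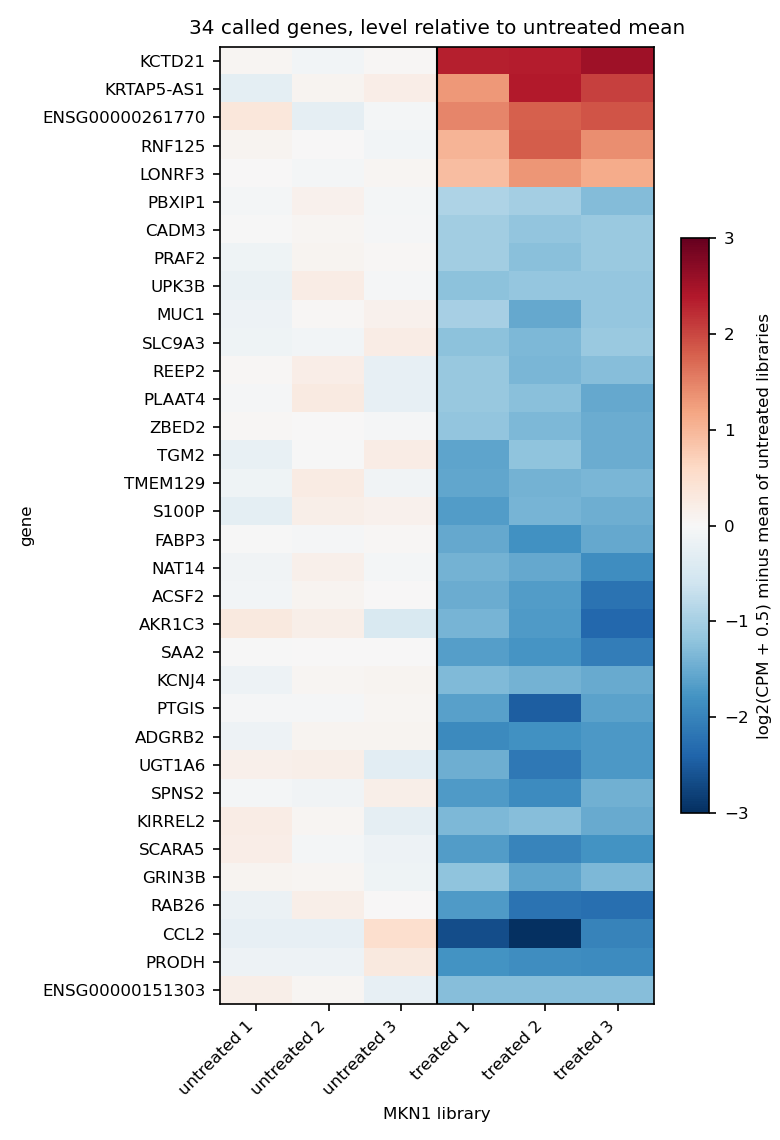
Colour shows log2(CPM + 0.5) of the 34 genes that passed (rows) in the 6 MKN1 libraries (columns), minus the mean of the 3 untreated libraries, with red higher and blue lower. Untreated replicate 3 resembles untreated replicates 1 and 2 in these rows, which were chosen with it counted as untreated, from KCTD21 at the top to the transcript with 0 treated counts at the bottom.

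How far these calls lean on single libraries was read from the fits with 1 library left out. KCTD21 and SAA2 passed in 5 of the 6 fits and missed the threshold without treated replicate 2 (adjusted p = 0.0656 for both). ADGRB2 and RAB26 passed in 2 fits, and the other 30 genes only in the fit without untreated replicate 3. The direction of all 34 was the same in every one of these fits.

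Below the threshold, higher genes were close to passing. INPP4B, an inositol phosphatase, had 21.1, 19.4 and 20 CPM in untreated and 36.3, 47.4 and 39.8 CPM in treated cells (log2 fold change 1.03, adjusted p = 0.0522). FAM83A had 12.5, 13 and 10.7 CPM against 25.2, 30.3 and 22.6 CPM (1.11, adjusted p = 0.0522). IDH1, the cytosolic isocitrate dehydrogenase, had 107, 102 and 107 CPM against 201, 168 and 200 CPM (0.85, adjusted p = 0.0538). Non-overlapping groups were a condition for naming the genes of this paragraph, and 22% of all tested genes had them. FAM117B (1.14), the lincRNA PRECSIT (1.13), TMCC3 (1.52), the homeobox gene LHX1 (1.25), CYP27C1 (1.15) and the chemerin receptor gene CMKLR2 (1.95) had adjusted p from 0.0567 to 0.0637. All 9 passed without untreated replicate 3.

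None of the genes of the drug's known targets passed the test. PPP2CA, the main PP2A catalytic subunit, had 427, 399 and 312 CPM in untreated and 394, 407 and 348 CPM in treated cells (log2 fold change 0.01, SE 0.17, adjusted p = 0.978). PPP2CB (0.05, adjusted p = 0.908), the scaffold gene PPP2R1A (0.11, adjusted p = 0.815) and the PP1 catalytic genes PPP1CA (−0.06, adjusted p = 0.897), PPP1CB (0.00, adjusted p = 0.994) and PPP1CC (0.21, adjusted p = 0.531) did not pass, and the sign of all but PPP1CC turned under some settings. Of 10 catalytic and scaffold genes, none passed with or without untreated replicate 3, and their median was 0.01, the same as the 0.01 over all tested genes. Among 23 regulatory subunits and inhibitors, PPP2R5A (0.57, adjusted p = 0.153) and PPP2R5B (0.64, adjusted p = 0.149) had groups that did not overlap and passed only without untreated replicate 3.

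Gene lists are described next by counts and medians, beside the values over all tested genes. Only 2 of 39 lists held a gene that passed with all libraries, namely AKR1C3 among 27 NRF2 target genes and MUC1 among 11 gastric epithelial genes. MUC1 fell, but 7 of the 11 gastric genes were positive, with a median of 0.36. That median was 0.42 without untreated replicate 3 and 0.17 without treated replicate 3. Of 12 gastric genes tested without untreated replicate 3, 2 were lower and 1, GATA4, was higher (0.93, adjusted p = 0.0455). For the other lists the counts given are those without untreated replicate 3. The values over all genes were 2.96% higher, 2.85% lower and a median of 0.02. The lists were chosen with earlier results of these data known, so list counts and medians that stand out from these are description and not independent support.

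Mitotic genes had lower values in treated cells, although no member passed with all libraries. CCNB1, the cyclin that drives mitotic entry, had 426, 413 and 327 CPM in untreated and 243, 163 and 194 CPM in treated cells. The groups did not overlap and the log2 fold change was −0.96 (SE 0.19, adjusted p = 0.0674), or −1.07 (adjusted p = 0.0184) without untreated replicate 3. UBE2C, the ubiquitin-conjugating enzyme of the anaphase-promoting complex, had 310, 333 and 262 CPM against 182, 152 and 138 CPM (−0.94, adjusted p = 0.0612, and 0.0157 without untreated replicate 3). HJURP, the chaperone that loads the centromeric histone, had 203, 186 and 98.2 CPM against 93.6, 67.9 and 69.5 CPM (−1.08, adjusted p = 0.108). Here untreated replicate 3 was next to the highest treated value, and without it the log2 fold change was −1.33 (adjusted p = 0.00669). CDCA8, a subunit of the chromosomal passenger complex, had 98.8, 109 and 89.1 CPM against 70.8, 54.5 and 66.1 CPM (−0.63, adjusted p = 0.116, and 0.0412 without that library).

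Of 34 spindle and cytokinesis genes, all 34 had a negative log2 fold change with a median of −0.52, and 5 passed without untreated replicate 3, all lower. Of 25 kinetochore genes, 25 were negative (median −0.43) and 3 passed. Of 19 mitotic cyclins and kinases, 17 were negative (median −0.46) and 5 passed. Of 10 mitotic exit genes, 9 were negative (median −0.46) and 4 passed. In the spindle list the library medians, relative to the mean of each gene, were 0.45, 0.37 and −0.12 for the untreated libraries against 0.14, −0.35 and −0.52 for the treated ones. Untreated replicate 3 thus lay below treated replicate 1, and the treated libraries were spread widely. Without untreated replicate 3 the medians were −0.68 for the spindle, −0.57 for the kinetochore, −0.60 for the cyclin and kinase and −0.42 for the mitotic exit list.

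Promoters of mitotic genes are known for CCAAT boxes, bound by NF-Y, and for the cell cycle homology region (CHR), bound by the DREAM and MuvB complexes. They are shown as examples because the members of these lists had lower values together. The 150 bases before the RefSeq start (GRCh38.p14) are written on the strand of the gene, with CCAAT (or ATTGG on the other strand) and the CHR letters TTTGAA or TTCGAA (or their reverse complement) in capitals. CCNB1 lies on the plus strand (chr5:69167000-69167149), HJURP on the minus strand (chr2:233854536-233854685) and CDCA8 on the plus strand (chr1:37692366-37692515).
CCNB1: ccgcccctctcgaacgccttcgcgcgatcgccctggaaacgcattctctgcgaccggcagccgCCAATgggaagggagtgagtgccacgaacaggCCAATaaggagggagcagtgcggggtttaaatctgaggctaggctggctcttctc
HJURP: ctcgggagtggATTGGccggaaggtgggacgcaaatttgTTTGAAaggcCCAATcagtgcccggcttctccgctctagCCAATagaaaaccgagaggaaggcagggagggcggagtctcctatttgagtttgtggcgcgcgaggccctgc
CDCA8: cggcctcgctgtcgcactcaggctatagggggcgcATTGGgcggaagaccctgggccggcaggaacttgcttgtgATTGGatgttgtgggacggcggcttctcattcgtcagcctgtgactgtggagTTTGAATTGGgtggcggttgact
In the 250 bases before the start, CCAAT on either strand was found in 68% of the 75 promoters of the 4 mitotic lists that the table holds, in 33% of all 27305 promoters and in 34.5% of the 12371 promoters of genes tested in MKN1. The CHR letters were found in 44%, 14.6% and 10%. The 3 promoters shown were chosen because they hold CCAAT or CHR letters. The CCNB1 bases shown hold CCAAT matches only and no CHR letters. TACC3, a spindle gene with 141, 147 and 130 CPM in untreated and 93.3, 76.3 and 84.0 CPM in treated cells (−0.72, adjusted p = 0.0702, and 0.0271 without untreated replicate 3), has 0 matches in its 150 bases. In CDCA8 a CHR match and a CCAAT match overlap. These are matches of letters and not measured binding sites.

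DNA replication genes also had lower values in treated cells. LIG1, the ligase that joins Okazaki fragments, had 41.7, 43.6 and 31.4 CPM in untreated and 25.3, 16.8 and 17.9 CPM in treated cells (−0.96, adjusted p = 0.0872, and 0.0192 without untreated replicate 3). E2F1, which drives genes of S phase entry, had 90.8, 107 and 87.4 CPM against 58.8, 43.2 and 52.8 CPM (−0.88, adjusted p = 0.0629, and 0.0204 without it). The groups did not overlap in either gene. Of 44 replication genes, 43 were negative (median −0.38) and 9 passed without untreated replicate 3, all lower (median −0.46). The E2F letters GCGGGAA or GGCGGGA stood in 53.8% of 39 replication promoters, in 15.9% of all promoters and in 25% of those of genes tested in MKN1. Of 27 homologous recombination and Fanconi genes the median was −0.25 (−0.08 without treated replicate 3), with FANCA and FANCG passing without untreated replicate 3. Of 18 replication-dependent histone genes listed, 14 were tested, with a median of 0.03, and none passed. H1-3, H1-4 and H2AC13 among them stood at 1.25 CPM or less in every library. How well these mRNA libraries capture histone transcripts was not tested.

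Interferon-stimulated genes had a median of −0.59 (−0.75 without untreated replicate 3), with 29 of 30 members negative. IFITM1, a membrane protein that blocks viral entry, had 105, 114 and 62.7 CPM in untreated and 50.4, 35.6 and 24.0 CPM in treated cells (−1.36, SE 0.30, adjusted p = 0.0816). BST2, the tetherin that holds budding virus on the cell, had 102, 119 and 87.2 CPM against 63.5, 50.6 and 42.1 CPM (−0.98, SE 0.19, adjusted p = 0.0637). Both passed without untreated replicate 3 (adjusted p = 0.0135 and 0.0173), as did 6 further members, all lower. The list also differed within the untreated group, where untreated replicate 3 had a median of −0.82 against untreated replicates 1 and 2. Medians by library were 0.53, 0.57 and −0.19 for the untreated cells against 0.06, −0.10 and −0.89 for the treated ones, so treated replicate 3 was lowest and untreated replicate 3 lay among the treated libraries.

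Interferon-stimulated promoters are known for the interferon-stimulated response element, here searched as GAAANNGAAA on either strand and shown in capitals for both genes, again over the 150 bases before the RefSeq start. BST2 lies on the minus strand (chr19:17405631-17405780) and IFITM1 on the plus strand (chr11:313890-314039).
BST2: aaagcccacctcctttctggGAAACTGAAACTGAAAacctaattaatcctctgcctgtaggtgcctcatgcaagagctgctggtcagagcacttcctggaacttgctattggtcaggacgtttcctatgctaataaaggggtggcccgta
IFITM1: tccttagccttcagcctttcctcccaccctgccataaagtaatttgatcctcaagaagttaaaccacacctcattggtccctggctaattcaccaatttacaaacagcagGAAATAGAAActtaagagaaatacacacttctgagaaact
In BST2 a pair of matches overlaps. The letters were found in 16 of 24 interferon-stimulated promoters (66.7%), in 3.07% of all promoters and in 2.36% of those of genes tested in MKN1.

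Target genes of YAP and TAZ, the coactivators restrained by the Hippo kinases, held strongly reduced members, which passed only without untreated replicate 3. ANKRD1 (ENSG00000148677, chromosome 10, 90912096 to 90921276), a nuclear ankyrin-repeat protein, had 57.7, 54.0 and 11.9 CPM in untreated and 5.26, 6.02 and 6.98 CPM in treated cells. Untreated replicate 3 lay close to the treated libraries, and the log2 fold change was −2.76 (SE 0.49, adjusted p = 0.0567), or −3.19 (adjusted p = 6.24e-05) without it. CCN1, a matricellular protein, had 924, 893 and 531 CPM against 317, 284 and 345 CPM (−1.31, adjusted p = 0.0522, and 0.00303 without it). The value of untreated replicate 3 lay between the groups. Of 24 members 16 were negative (median −0.27), and without untreated replicate 3, 7 were lower and 1 was higher (median −0.21). With all libraries 9 members were lower and 3 higher with non-overlapping groups, against 11.8% and 10.2% of all genes. Medians by library were 0.14, 0.04 and 0.12 for the untreated cells against −0.17, −0.20 and −0.11 for the treated ones. Untreated replicate 3 thus stayed on the untreated side in this measure. The members that passed include ligands and signalling genes such as CCN2 (−1.35), the coagulation factor receptor F3 (−1.46) and TGFB2 (−0.62), and the higher one was AMOTL1 (0.97), an angiomotin that binds YAP.

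Genes of ATF4, the transcription factor of the integrated stress response, divided the libraries in another way. DDIT3, which encodes the stress factor CHOP, had 16.2, 17.4 and 20.4 CPM in untreated and 30.8, 131 and 66.4 CPM in treated cells. The groups did not overlap, treated replicate 2 was by far the highest, and the log2 fold change was 2.08 (SE 0.42, adjusted p = 0.0702), or 2.17 (adjusted p = 0.0301) without untreated replicate 3. SESN2, a stress-induced inhibitor of mTORC1, had 10.7, 10.4 and 21.1 CPM against 16.5, 75.3 and 66.1 CPM (1.90, adjusted p = 0.126, and 2.32 with adjusted p = 0.0318 without untreated replicate 3), with untreated replicate 3 above treated replicate 1. Of 31 members 21 were positive (median 0.28), and 8 passed as higher without untreated replicate 3, where the median was 0.64. Medians by library were −0.47, −0.39 and 0.49 for the untreated cells against −0.55, 0.72 and 0.38 for the treated ones. Treated replicate 1 was thus at the level of untreated replicates 1 and 2, and untreated replicate 3 at that of treated replicates 2 and 3. Without treated replicate 2 the list median was −0.05, and without any other library it lay between 0.12 and 0.64.

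Genes of ERK output were mostly higher. Of 25 members, 21 were positive (median 0.44), none passed with all libraries, and without untreated replicate 3, 4 were higher and 1, the growth factor gene EREG, was lower. DUSP8, a MAP kinase phosphatase, had 4.97, 4.47 and 6.62 CPM in untreated and 8.58, 9.33 and 12.0 CPM in treated cells (0.90, adjusted p = 0.133, and 0.0322 without untreated replicate 3). The list median of untreated replicate 3 against untreated replicates 1 and 2 was −0.63, away from the treated cells, and without that library the list median was 0.32. Immediate early genes had a median of −0.13 (0.05 without treated replicate 1), and the 5 that passed without untreated replicate 3 were all lower. FOSL1, an AP-1 subunit, stood at 303, 305 and 67.1 CPM against 104, 122 and 165 CPM, with untreated replicate 3 the lowest of all. Its log2 fold change was −0.79 (adjusted p = 0.427), or −1.22 (adjusted p = 0.0154) without untreated replicate 3. FOS, a further AP-1 subunit, went the other way, with 45.4, 51.2 and 38.8 CPM against 68.7, 59.5 and 87.1 CPM. It did not pass in either fit (0.67, adjusted p = 0.14, and 0.11 without untreated replicate 3). Of the 27 immediate early genes, 12 were positive and 15 negative.

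Cholesterol biosynthesis genes were a group in which untreated replicate 3 stayed on the untreated side. SQLE, squalene epoxidase, had 38.8, 34.7 and 39.4 CPM in untreated and 75.8, 58.1 and 91.0 CPM in treated cells (1.00, SE 0.19, adjusted p = 0.0629). DHCR7, the last enzyme of cholesterol synthesis, had 39.5, 43.5 and 40.6 CPM against 73.2, 58.6 and 85.5 CPM (0.81, SE 0.17, adjusted p = 0.074). Neither gene showed overlap between the groups, and both passed without untreated replicate 3 (adjusted p = 0.0244 and 0.0409). Of 25 members, 22 were positive (median 0.43) and 10 had non-overlapping groups, all higher, against 10.2% of all genes. Without untreated replicate 3 the median was lower, at 0.28. No other member passed in either fit.

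Stress and detoxification lists gave smaller medians. Among 27 NRF2 target genes the median was −0.08, and without untreated replicate 3 it was −0.23 and 6 were lower. Of these 6, 4 were aldo-keto reductases, AKR1C1 (−2.17), AKR1C2 (−1.76), AKR1C3 (−2.04) and AKR1B10 (−2.04), near-identical copies in part whose reads may be split. In AKR1C1 the values were 207, 203 and 54.8 CPM in untreated and 79.1, 36.8 and 20.9 CPM in treated cells, and untreated replicate 3 lay inside the treated range (−1.77, adjusted p = 0.164, with all libraries). Of 23 cytosolic heat shock genes 4 were lower without untreated replicate 3. Among them was HSPB1, a small heat shock protein, with 108, 138 and 129 CPM against 82.1, 67.9 and 57.1 CPM (−0.86, adjusted p = 0.0702, and 0.0368 without that library). HSPB8 went the other way, with 25.1, 26.8 and 25.5 CPM against 32.4, 43.8 and 46.5 CPM (0.66, adjusted p = 0.13, and 0.0757 without that library). With all libraries 3 members were higher and 6 lower with non-overlapping groups, against 10.2% and 11.8% of all genes. The heat shock median was −0.13, or −0.01 without treated replicate 2. Endoplasmic reticulum chaperone genes (24) had a median of 0.05 and autophagy and lysosome genes (30) of −0.04, and none of either list passed in either fit. The 29 p53 target genes had a median of 0.03, and without untreated replicate 3 (median −0.05) SESN2 (2.32) and the death receptor gene TNFRSF10B (1.05) were higher and the polo-like kinase gene PLK2 (−1.25) was lower. In the apoptosis list CASP8, the initiator caspase of death receptors, had 53.6, 48.9 and 54.2 CPM against 86.2, 101 and 74.1 CPM (0.74, adjusted p = 0.0815, and 0.0352 without untreated replicate 3).

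Growth and identity lists followed. Cytosolic ribosomal protein genes had a negative value in 42 of 42 (median −0.25), nuclear oxidative phosphorylation genes in 33 of 34 (median −0.27) and mitochondrially encoded genes in 13 of 13 (median −0.28), and no member passed in either fit. The ribosomal library medians overlapped, at 0.01, 0.26 and 0.11 for the untreated libraries against −0.15, −0.36 and 0.13 for the treated ones. Without treated replicate 2 the 3 medians were −0.15, −0.16 and −0.15, and without treated replicate 3 the ribosomal one was −0.42. Of 25 splicing factor genes the 4 that passed without untreated replicate 3 were SR proteins, all lower. SRSF6 had 662, 604 and 203 CPM in untreated and 241, 230 and 251 CPM in treated cells (−1.02, adjusted p = 0.201, and −1.39 with adjusted p = 0.0038 without untreated replicate 3). Untreated replicate 3 had the lowest value of the 6. Squamous genes had a median of −0.11 in treated cells and of −0.56 in untreated replicate 3 against untreated replicates 1 and 2. LY6D, a surface protein of stratified epithelium, had 121, 150 and 58.7 CPM against 41.3, 35.8 and 25.3 CPM (−1.69, SE 0.32, adjusted p = 0.0629), and passed without that library (−1.99, adjusted p = 0.00303). The squamous median was −0.32 without untreated replicate 3 and turned to 0.05 without untreated replicate 2.

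The other lists had few members that passed without untreated replicate 3, and each of the 10 medians below turned sign or moved by over 1.5 times when some 1 library was left out. The medians with all libraries were −0.28 for 10 mitotic transcription factors (1 lower), 0.02 for 27 BCL2 family and apoptosis genes (2 higher) and −0.09 for 25 NF-kB target genes (1 higher and 3 lower). TNFAIP2, an abundant NF-kB target of uncertain cellular role, had 1320, 1440 and 1250 CPM in untreated and 713, 738 and 490 CPM in treated cells (−1.05, SE 0.19, adjusted p = 0.0567, and 0.0196 without untreated replicate 3), with no overlap. Hypoxia and glycolysis genes (31) had a median of 0.08 (2 higher and 1 lower). The lower one was PFKL, the liver-type phosphofructokinase, with 64.3, 70.8 and 57.7 CPM against 40.1, 33.9 and 37.1 CPM. Its log2 fold change was −0.79 (adjusted p = 0.0629, and 0.0188 without untreated replicate 3). PDK1, 1 of the 2 higher, had 40.5, 33.3 and 27.8 CPM against 50.7, 67.0 and 63.1 CPM (0.83, adjusted p = 0.0892, and 0.0498 without untreated replicate 3). Epithelial junction genes (24) had a median of −0.12 (1 higher and 1 lower), and the lower one was the tight junction gene CLDN7 with 9.15, 10.3 and 10.8 CPM against 4.34, 5.79 and 4.09 CPM (−1.09, adjusted p = 0.0702, and 0.0343 without that library). Medians were 0.01 for 27 mesenchymal and TGF-beta genes (2 lower), 0.05 for 28 matrix protease and adhesion genes (1 lower), 0.19 for 20 Wnt target genes (1 lower), 0.09 for 17 fatty acid synthesis genes and 0.06 for 30 ribosome biogenesis genes (none in either). Among markers of other cell types, 1 of 3 endothelial genes was higher (ERG), 1 of 6 blood genes was lower (HBB), and 0 of 7 fibroblast genes passed without untreated replicate 3.

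**Figure D4:**
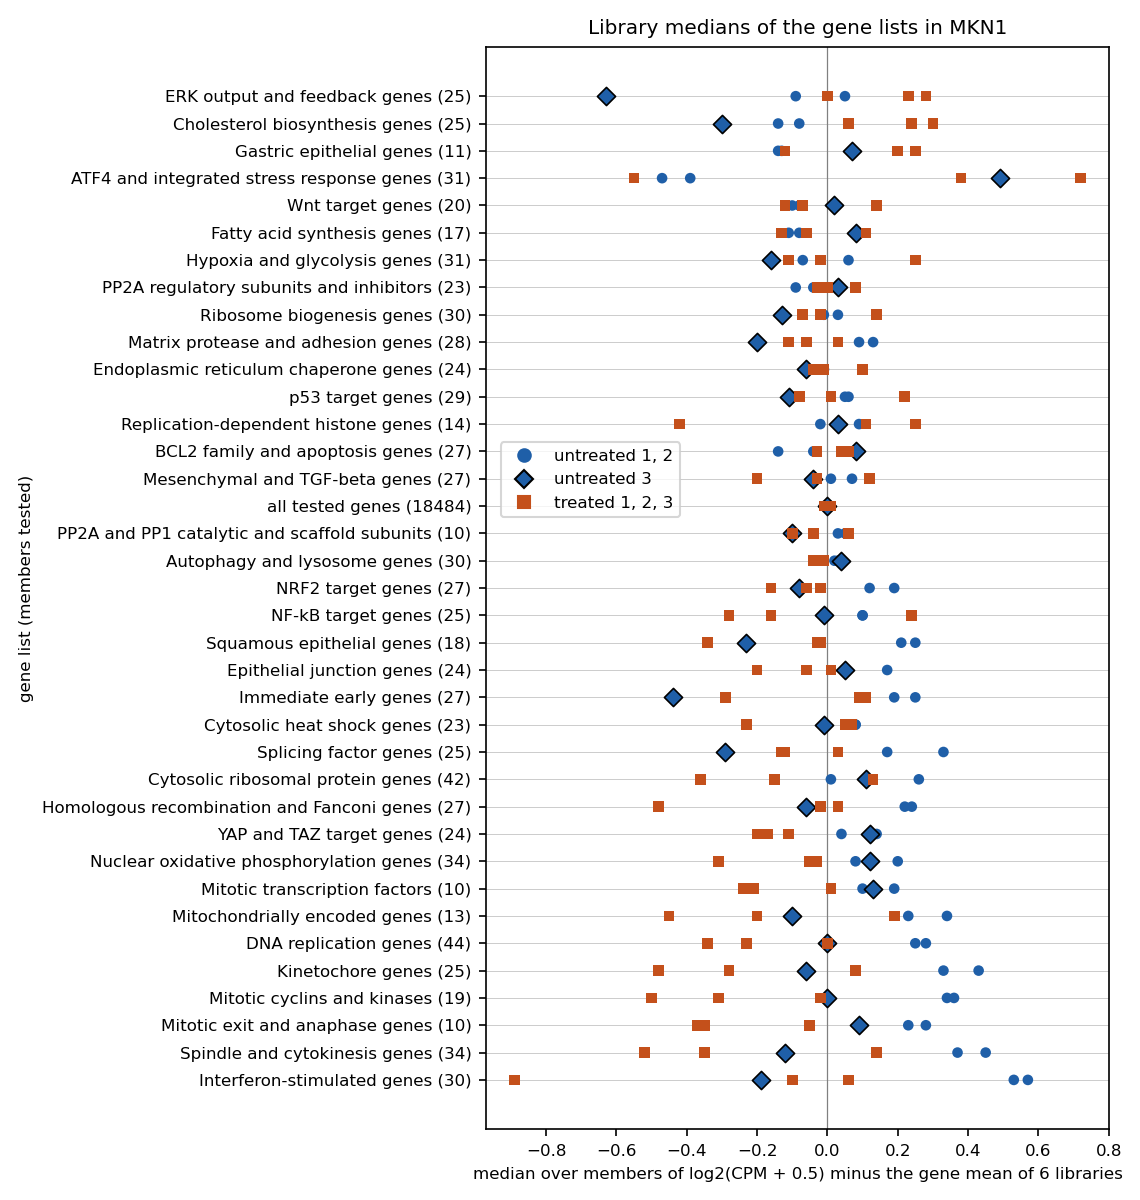
For 36 gene lists and all tested genes (rows, with the number tested), points give each library's median of log2(CPM + 0.5) minus the mean of each gene over the 6 libraries; circles are untreated replicates 1 and 2, diamonds untreated replicate 3, squares treated libraries. In the interferon and ATF4 lists the diamond lies among the squares, at −0.19 and 0.49, while in the cholesterol list it lies at −0.30, below every square.

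The treated-minus-untreated difference was also compared with that in AGS by an interaction test over all 12 libraries, in which 3180 of 20280 genes (15.7%) differed between the lines. Of the 34 MKN1 genes 22 differed, 20 with the more negative value in MKN1 and 2, KCTD21 and KRTAP5-AS1, with the more positive one. The 34 were chosen by their difference in the same MKN1 libraries, which favours a difference between lines. The 22 can therefore not be read against the 15.7%. With 29 of the 34 lower in treated MKN1 cells, more negative values were favoured too. In AGS, 10 of the 34 passed, 9 of them in the opposite direction, against 20.8% of all genes that passed in AGS. TGM2 was one of the 9, with a rise of 1.76 (SE 0.15, adjusted p = 5.25e-05) in AGS and a difference between lines of −3.21 (SE 0.21, adjusted p = 1.64e-05). PRODH rose by 1.63 in AGS (difference −4.61, SE 0.34, adjusted p = 1.64e-05), ADGRB2 by 0.99 (difference −2.88, adjusted p = 0.000149) and MUC1 by 0.65 (difference −1.88, adjusted p = 0.000319). DHCR7 fell by 1.63 in AGS (difference 2.44, adjusted p = 2.38e-05). Of the 34 genes, 15 averaged below 1 CPM in AGS, among them SAA2, CCL2 and PTGIS, so that for these the test of a difference between lines had little to work with. The CCNB1 (−0.50, adjusted p = 0.136) and UBE2C (−0.36, adjusted p = 0.212) differences between lines did not pass. Those of HJURP, LIG1, CDCA8 and TACC3 did not pass either (adjusted p from 0.086 to 0.657). The differences of E2F1 (−0.82, adjusted p = 0.0219) and FANCA (−1.01, adjusted p = 0.00176) passed.

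**Figure D5:**
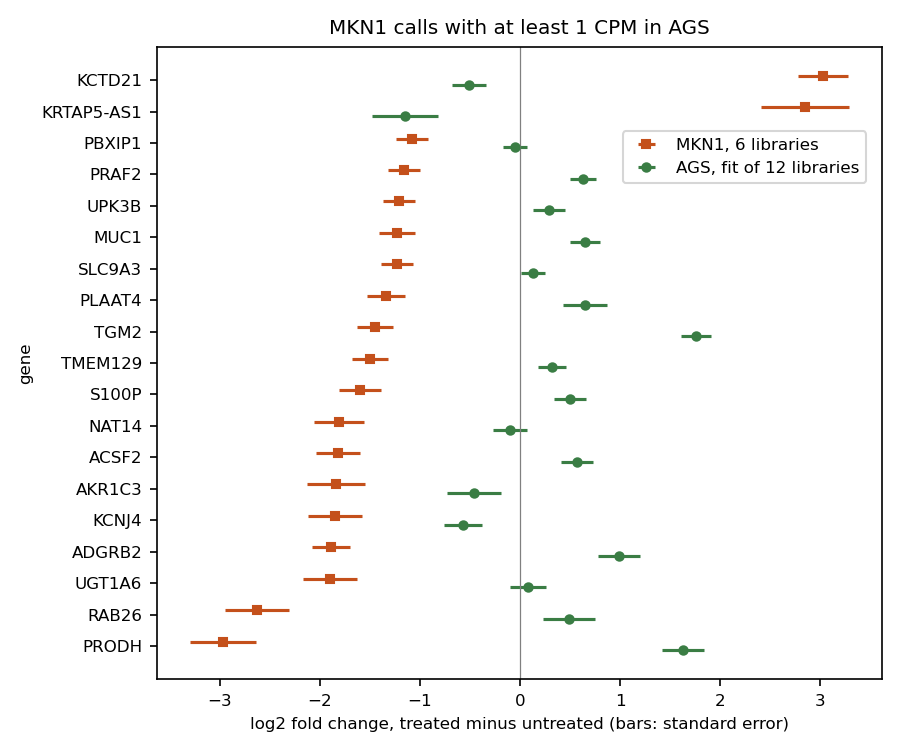
Log2 fold changes, treated minus untreated, with standard errors as bars, for the 19 of 34 MKN1 genes with at least 1 CPM in AGS (rows); squares are MKN1 fitted on its 6 libraries and circles AGS in the fit of 12 libraries. TGM2 lies at −1.45 in MKN1 and 1.76 in AGS, and PRODH at −2.97 and 1.63.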

How the data were processed

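Per the labels' protocols, total RNA was extracted with TRIzol and mRNA libraries were made with the NEBNext Ultra RNA kit, which does not mark strand. HISAT2 2.0.4 and the build hg38/GRCh38 are named in the submitters' processing notes. No counting tool, strand setting or annotation is stated in the sources used here, and antisense and overlapping genes are therefore uncertain. Besides those marked above, these include PRAF2 (43.6% of exon bases shared, with WDR45), DDIT3 (39.6%, with MBD6 and others), CADM3 (36.8%, with ACKR1 and CADM3-AS1) and IFITM1 (32.5%, with IFITM2). The authors deposited raw counts for 32269 Ensembl identifiers, all naming a gene. Symbols matched 32069 of them, and GENCODE release 29 gave GRCh38 positions and exon overlaps for 32136. Replicates are called biological in the series' design text, with nothing on separate cultures, so p-values measure the spread between these libraries.

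The 6 MKN1 libraries were fitted alone with edgeR 4.0.16 in R 4.3.3 (TMM factors, filterByExpr with a minimum count of 10, quasi-likelihood F test, 4 residual and 5.68 prior degrees of freedom). P-values were adjusted by Benjamini-Hochberg over all 18484 tested genes, at a threshold of 0.05. CPM are counts scaled to the TMM-adjusted column total, medians use log2(CPM + 0.5), and the floor of 3 counts covers counting error only. The difference between lines was the interaction in a fit of 12 libraries. The comparison with AGS and all adjusted p without a tool name are from edgeR. On simulated data with 18484 genes and the spread of these libraries, 34 of 98 genes changed 2-fold and 86 of 98 changed 4-fold were recovered, with 7 unchanged genes called. Replicates of a group differed far beyond sampling noise (chi-square per degree of freedom of 13.8 or more).

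The members and the 39 gene lists were chosen with earlier results of these data known. Named genes were the 12 largest changes in each direction among genes that passed. They had an ordinary symbol, non-overlapping groups and 5 CPM or more on average, and were filled up to 12 by the smallest p. In each list the 2 members of smallest p were taken as candidates, but not all of them are described above. Further list members that passed, and the phosphatase genes whatever their values, were named as well. All other genes that passed are named too. Others, namely SPRED3, HMOX1, FOSL1, SRSF6, AKR1C1 and the list members that passed only without untreated replicate 3, were picked after their values were seen. Promoter sequences came from RefSeq (GRCh38.p14) and were matched by symbol. Alternatives were other scalings, filters and tests (DESeq2 1.42.0, limma 3.58.1), a replicate block and each library left out.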

Additional observations from a re-analysis of the deposited data

Results flagged for a closer look

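Several genes named in MKN1 had a treatment difference that differed from that in AGS by the interaction test of edgeR over 12 libraries (adjusted p below 0.05). The differences below are MKN1 minus AGS on the log2 scale. The genes were named for their difference in the same MKN1 libraries, which favours a difference between lines. Among genes that passed in MKN1, the difference was more negative in MKN1 for PRODH (−4.61), TGM2 (−3.21), ZBED2 (−3.20), RAB26 (−3.13), ADGRB2 (−2.88), ACSF2 (−2.40), S100P (−2.10), SPNS2 (−2.06) and PLAAT4 (−2.0). It was also more negative for UGT1A6 (−1.99), FABP3 (−1.95), MUC1 (−1.88), TMEM129 (−1.83), PRAF2 (−1.80), NAT14 (−1.72), UPK3B (−1.51), AKR1C3 (−1.38), SLC9A3 (−1.36), KCNJ4 (−1.29) and PBXIP1 (−1.03). It was more positive for KRTAP5-AS1 (3.99) and KCTD21 (3.53). Among the higher genes that did not pass in MKN1 alone, the difference was 5.02 for CYP27C1, 2.29 for LHX1, 2.16 for PRECSIT, 2.12 for CMKLR2, 1.98 for SQLE, 1.86 for TMCC3, 1.24 for FAM117B and 0.71 for IDH1. CYP27C1 averaged 0.024 CPM in AGS, below the floor of 3 counts in a library, so its difference rests on very few reads. ZBED2, FABP3, SPNS2, TMCC3, LHX1 and PRECSIT also averaged below 1 CPM there. Treated and untreated groups held 3 libraries each, too few for a check of single outlying libraries by their gaps.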

How the results depend on the processing

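The direction of the 34 genes was the same under every setting that tested them, while the number of calls was not stable. Leaving out a library gave 0 to 1106 calls (0 to 563 higher, 0 to 543 lower). The 0 came without treated replicate 2, where 2262 genes had an unadjusted p below 0.05. With other settings the calls (higher and lower) were 22 (2 and 20) with library totals, 12 (1 and 11) without a filter, 5 (1 and 4) against a log2 change of 0.5 and 43 (8 and 35) with a filter of 5 CPM. They were 781 (266 and 515) with the DESeq2 test, 1568 (793 and 775) with voom sample weights, where untreated replicate 3 had the lowest weight of 0.373, and 1358 (567 and 791) with the spread of all 12 libraries. Alternatives added after seeing the data gave 67 (17 and 50) with a robust spread and, without untreated replicate 3, 2122 (1084 and 1038) with DESeq2 and 885 (402 and 483) with voom. Why the tools differ was not tested. Genes that differed between lines ranged from 2402 to 4643 over left-out libraries. Library totals moved the median of all genes from 0.01 to 0.08.

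Deviations of same-numbered libraries from their group means correlated at 0.143, −0.051 and 0.232. The last, for replicate 3, was the highest of any untreated and treated pair, and unlike numbers gave −0.274 to 0.169. The labels state no batch, so the main fit took no pairs, and whether the numbers mark pairs was not tested. With the replicate block 26 genes passed (4 and 22), 18 of them among the 34. Near 0, signs turned for PPP2CA (−0.04 with voom weights, 0.00 without a filter, −0.12 and −0.11 with DESeq2 and voom without untreated replicate 3, and −0.11 to 0.01 over left-out libraries), PPP1CA (0.01 with library totals, −0.14 to 0.06 over left-out libraries), PPP1CB (0.00, 0.07, 0.01 and 0.02 with upper-quartile factors, library totals, voom weights and the 5 CPM filter, and −0.08 to 0.06 over left-out libraries), PPP2CB (−0.07 to 0.12 over left-out libraries) and PPP2R1A (−0.11 to 0.26). Genes of few counts are limited by depth: 3 counts stand for about 0.1 CPM.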
